A study of Mus musculus with 2 samples.

Results

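Glycolysis genes were followed through 2 single-cell libraries of sorted mouse liver endothelial cells, 1 from control livers and 1 from cirrhotic livers. The 10 genes were taken by name from both count tables, Slc2a1, Hk1, Pfkfb3, Aldoa, Tpi1, Gapdh, Pgk1, Eno1, Pkm and Ldha, and they are 10 of 31057 rows. All mice were C57BL/6, 16 weeks old and of the genotype Cdh5-Cre+, mTmG +/+, so that cells with a history of the endothelial Cdh5 promoter carry membrane GFP. The cirrhosis mice had breathed carbon tetrachloride (CCl4), a hepatotoxin, over 12 weeks. The labels attach the same CCl4 text to both samples, only their model and title entries set the control apart, and what the control mice breathed is therefore not known here. Live GFP-positive cells from a pool of 3 mice per group made 1 library per group, so there was no replicate and no test between groups. Every interval given is an exact 95% interval that covers counting error only, and differences between mice cannot be told apart from differences between the groups.

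Glycolysis splits glucose to pyruvate in the cytosol and yields ATP without oxygen. Endothelial cells are known to draw most of their ATP from it, and PFKFB3, which makes the activator of phosphofructokinase, is known to set its rate in sprouting vessels. Several of these genes are textbook targets of hypoxia-inducible factors, which bind short sites with the core ACGTG or GCGTG. On GRCm38 the genes that prepare glucose lie apart, with Slc2a1 at chr4:119108711-119137983, Hk1 at chr10:62268855-62379908 and Pfkfb3 at chr2:11471433-11554077. The enzymes of the trunk are Aldoa at chr7:126795234-126800751, Tpi1 at chr6:124810586-124814296, Gapdh at chr6:125161715-125166467, Pgk1 at chrX:106187100-106203699, Eno1 at chr4:150236721-150248879 and Pkm at chr9:59656368-59679375, and Ldha at chr7:46841475-46855627 follows them. Each is a protein-coding gene and its whole span is given.

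Promoter windows of 4 genes are shown because they carry that core and because their genes went different ways in the cirrhosis library: Ldha, Pgk1 and Gapdh were higher and Pfkfb3 was lower. Each is the 250 bases before a RefSeq start on GRCm38.p6, written 5′ to 3′ along the gene, with every match to ACGTG or GCGTG on either strand (CACGT and CACGC on the other) in capitals. Overlapping matches merge into 1 run such as CACGTG.
Ldha, first window, chr7:46845554-46845803 (+ strand): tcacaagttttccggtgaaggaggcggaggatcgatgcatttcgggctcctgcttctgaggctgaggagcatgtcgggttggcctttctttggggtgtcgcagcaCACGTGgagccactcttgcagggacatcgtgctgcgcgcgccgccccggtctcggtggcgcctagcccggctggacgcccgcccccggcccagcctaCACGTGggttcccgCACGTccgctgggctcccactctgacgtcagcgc
Ldha, second window, chr7:46846832-46847081 (+ strand): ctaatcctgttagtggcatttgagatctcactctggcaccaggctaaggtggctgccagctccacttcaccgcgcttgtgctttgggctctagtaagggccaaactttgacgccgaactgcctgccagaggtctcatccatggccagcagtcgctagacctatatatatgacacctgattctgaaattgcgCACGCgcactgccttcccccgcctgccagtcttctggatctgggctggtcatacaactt
Pgk1 chrX:106186850-106187099 (+ strand): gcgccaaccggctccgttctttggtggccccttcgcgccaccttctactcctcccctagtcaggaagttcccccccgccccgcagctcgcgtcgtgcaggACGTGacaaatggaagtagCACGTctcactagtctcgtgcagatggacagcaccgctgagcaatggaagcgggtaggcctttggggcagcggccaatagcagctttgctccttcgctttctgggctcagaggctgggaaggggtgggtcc
Gapdh chr6:125165774-125166023 (- strand): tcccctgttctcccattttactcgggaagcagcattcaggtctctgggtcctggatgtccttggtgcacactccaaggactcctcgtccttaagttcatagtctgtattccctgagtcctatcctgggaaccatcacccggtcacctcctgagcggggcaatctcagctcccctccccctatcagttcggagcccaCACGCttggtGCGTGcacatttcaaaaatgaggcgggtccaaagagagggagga
Pfkfb3, first window, chr2:11553930-11554179 (- strand): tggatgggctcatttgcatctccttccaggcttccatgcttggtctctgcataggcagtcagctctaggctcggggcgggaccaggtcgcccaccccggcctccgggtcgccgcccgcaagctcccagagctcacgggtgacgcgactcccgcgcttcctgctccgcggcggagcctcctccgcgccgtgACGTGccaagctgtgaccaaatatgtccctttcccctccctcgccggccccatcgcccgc
Pfkfb3, second window, chr2:11502091-11502340 (- strand): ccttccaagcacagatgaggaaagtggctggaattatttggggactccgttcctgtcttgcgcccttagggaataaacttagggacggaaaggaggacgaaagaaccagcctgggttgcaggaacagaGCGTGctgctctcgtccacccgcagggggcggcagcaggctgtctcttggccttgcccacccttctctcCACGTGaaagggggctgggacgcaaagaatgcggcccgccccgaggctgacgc
Counted on both strands, Ldha held 5 matches in the first window, whose start was not found in the transcripts searched, and 1 in the second, whose start was. Pfkfb3 held 1 match in the first window and 3 in the second, and the windows of Pgk1 and Gapdh held 2 each. The number of matches thus followed the window chosen and gave no order between the genes that were higher and the one that was lower. In the first RefSeq window of each gene, 6 of the 10 glycolysis genes held the core, against 38.6% of all 27025 genes and 59.0% of 5630 genes at 20 or more counts per 1000000 UMIs. With every listed window counted, Pkm, Aldoa and Hk1 held it too, so that 9 of 10 did and Tpi1 did not, against 41.5% of all genes and 63.7% of the expressed ones. Genes differ in how many windows they have, so these last shares are not matched for the length searched.

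The control library held 5642 barcodes with 45767322 UMIs and the cirrhosis library 8327 barcodes with 77339928 UMIs, and 17 barcode sequences occurred in both. After filters 4953 and 7191 barcodes were kept, and clusters were named without using the glycolysis genes. Liver sinusoidal endothelial cell-like (LSEC-like) cells numbered 2719 and 2838, or 54.9% and 39.5%. Their 10 LSEC markers were all above the other endothelial classes in each library, but summed to 25742 CPM (the UMIs of a class scaled to a total of 1000000) in control and 16962 CPM in cirrhosis. The classes were named on these same markers, so the order between classes was largely set by the naming. Not all sorted cells were endothelial by their markers: T or NK, Kupffer, plasmacytoid dendritic, B, hepatocyte and cholangiocyte-like classes were present, and 28.6% and 26.5% of barcodes stayed mixed or unnamed.

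In LSEC-like cells 8 of the 9 glycolysis genes above the minimum of 20 CPM were higher in the cirrhosis library and 1, Pfkfb3, was lower. The median log2 ratio of cirrhosis over control was 0.52, against -0.04 for all 6894 genes above the same minimum, of which 43.9% were higher. Together the 10 genes held 1216 CPM in control and 1726 CPM in cirrhosis. Differences were mostly below 1.5-fold: only Gapdh passed it, 1 of 9 where 4.41% of all genes did so upwards, and none passed it downwards, where 5.18% did. Eno1, Ldha, Pkm and Hk1 lay between 1.43-fold and 1.46-fold higher.

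**Figure D1:**
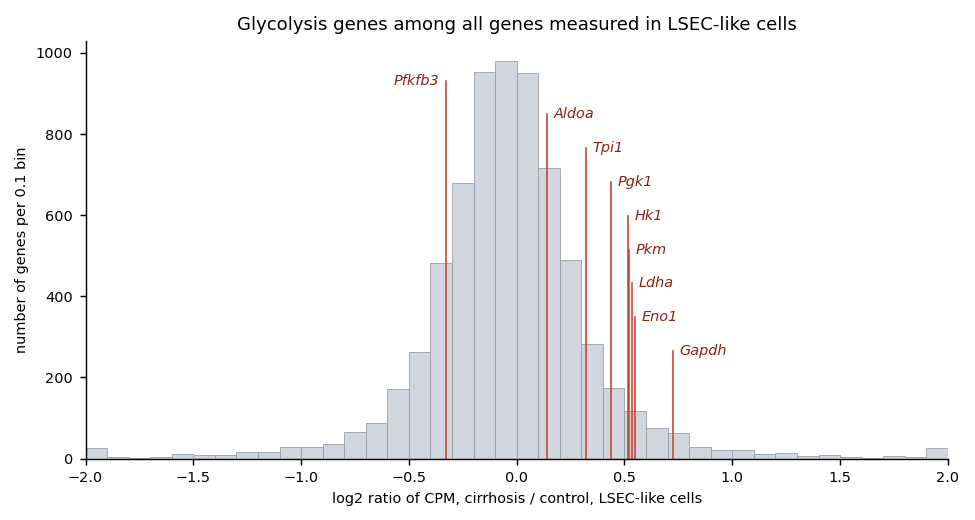
Distribution of the log2 ratio of CPM, cirrhosis over control, over the 6894 genes measured in LSEC-like cells (bars, 0.1 wide, with values beyond the axis in the end bins) and the 9 glycolysis genes above the minimum (red lines, whose height has no meaning). Pfkfb3 at -0.33 lies left of the peak, Aldoa at 0.14 within it, and Gapdh at 0.72 furthest right.

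The distribution over all genes places the values. Gapdh was above 97.0% of the genes measured, Eno1 above 95%, Ldha above 94.7%, Pkm above 94.4% and Hk1 above 94.3%. Pgk1 and Tpi1 were above 92.6% and 88.6%, and Aldoa above 74.4%. Pfkfb3 was above only 15.9%.

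Glucose enters the cell through transporters, and Slc2a1 encodes GLUT1, the basal glucose transporter of many tissues and of the blood-brain barrier. LSEC-like cells held very little of its transcript, 47 UMIs or 2.34 CPM in control and 87 UMIs or 3.11 CPM in cirrhosis (log2 0.41, interval -0.12 to 0.96). A difference over all LSEC-like cells was not detectable at this depth. The zones differed in sign, at -0.80 (-2.18 to 0.59) in pericentral, 0.67 (0.05 to 1.32) in intermediate and 0.80 (-1.05 to 2.95) in periportal cells, from 4 to 67 UMIs each. In portal or arterial endothelial-like cells it was at 3.51 CPM from 3 UMIs and at 8.09 CPM from 17 UMIs. In the cirrhosis library that was above LSEC-like cells by log2 1.38 (interval 0.54 to 2.14), and in lymphatic endothelial-like cells, 62 of which were found there, it reached 38.4 CPM.

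Hk1 encodes hexokinase 1, which phosphorylates glucose and so keeps it in the cell. It stood at 48.8 CPM in control and 69.8 CPM in cirrhosis LSEC-like cells, a 1.43-fold difference (log2 0.52, interval 0.41 to 0.63). By zone it went from 51.8 to 83.1 CPM in pericentral, from 46.3 to 63.5 CPM in intermediate and from 57.9 to 75.6 CPM in periportal LSEC-like cells. It was therefore higher in cirrhosis in every zone, and only the pericentral difference passed 1.5-fold (1.61-fold, log2 0.68, interval 0.44 to 0.93). Portal or arterial endothelial-like cells already had 87.9 CPM in control and had 96.2 CPM in cirrhosis, whose interval on the log2 scale ran from -0.26 to 0.53.

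Pfkfb3 encodes the phosphofructokinase-2 isoform that raises fructose 2,6-bisphosphate and with it the flux through phosphofructokinase. It was the gene that went the other way, at 25.5 CPM (511 UMIs) in control and 20.3 CPM (567 UMIs) in cirrhosis LSEC-like cells, 1.25-fold lower (log2 -0.33, interval -0.50 to -0.15). The size of the difference varied along the lobule. Pericentral cells had 22.4 and 22.0 CPM (log2 -0.02, interval -0.42 to 0.39), intermediate cells 24.6 and 19.2 CPM (-0.35, -0.57 to -0.13), and periportal cells 34.6 and 22.5 CPM (-0.62, -1.09 to -0.16). Portal or arterial endothelial-like cells had 36.3 and 19.0 CPM, 1.91-fold lower (-0.93, -1.64 to -0.21), although from only 31 and 40 UMIs. In the control library the periportal and portal or arterial levels were thus the high ones. Periportal over intermediate cells had a log2 ratio of 0.50 (interval 0.14 to 0.84) there. Portal or arterial over all LSEC-like cells had 0.51, with an interval that spans 0 (-0.06 to 1.04). In cirrhosis all 4 classes stood between 19.0 and 22.5 CPM with overlapping intervals. The difference between zones in the ratio was not tested, and the intervals of the pericentral and periportal ratios overlap.

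Aldoa encodes aldolase A, which splits fructose 1,6-bisphosphate, and it differed least. LSEC-like cells had 168.9 CPM in control and 186.2 CPM in cirrhosis (log2 0.14, interval 0.08 to 0.20). With the zones weighted equally the value was 0.08, and in cells low in immediate-early genes 0.23. Pericentral cells, with 214.7 and 206.7 CPM, had a ratio near 0 whose sign turned with the scaling, from -0.06 on CPM to 0.03 by the median of ratios. Portal or arterial endothelial-like cells had 212.1 and 284.7 CPM (log2 0.43, interval 0.18 to 0.67). The annotation holds a second gene under the same symbol, at chr7:126800790-126809108, and a second row, Aldoa.1, had 1 UMI in all LSEC-like cells. The tables give symbols only, so which of the 2 loci each row stands for was not settled.

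Tpi1 encodes triosephosphate isomerase, which interconverts the products of aldolase. Its LSEC-like level was 55.5 CPM in control and 69.5 CPM in cirrhosis, 1.25-fold higher (log2 0.32, interval 0.22 to 0.43). The ratio had its sign in all zones, at 0.20 in pericentral, 0.36 in intermediate and 0.26 in periportal cells, and the first and last intervals reached below 0. With each cell thinned to 2000 UMIs, the value over all LSEC-like cells was 0.16.

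Gapdh encodes glyceraldehyde 3-phosphate dehydrogenase, which makes the first NADH of the pathway and is widely used as a reference gene. It was the gene with the widest difference, 312.4 CPM (6273 UMIs) in control and 515.7 CPM (14413 UMIs) in cirrhosis, 1.65-fold higher (log2 0.72, interval 0.68 to 0.77). Pericentral cells had 383.0 and 611.5 CPM, intermediate cells 295.3 and 479.4 CPM and periportal cells 307.4 and 512.6 CPM. The ratios of the 3 zones, 0.67, 0.70 and 0.74, were close, and their intervals overlapped. Annotated transcripts hold 88 near-identical copies of the last 500 bases of Gapdh. Only 2 of these have rows of their own, with 99 UMIs against 84330 for Gapdh over both tables, and how reads shared with copies were counted is not given in the sources used here.

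Pgk1 encodes phosphoglycerate kinase 1, which makes the first ATP that the pathway returns. It stood at 90.8 CPM in control and 123.0 CPM in cirrhosis LSEC-like cells (log2 0.44, interval 0.36 to 0.52). Periportal cells had 98.0 and 152.4 CPM, a 1.55-fold difference (0.64, 0.41 to 0.86), and pericentral cells 91.0 and 117.6 CPM (0.37, 0.18 to 0.56). In the cirrhosis library Pgk1 was thus lower in pericentral than in periportal cells, by log2 -0.37 (interval -0.54 to -0.21), and in the control library the same ratio was -0.11 (-0.35 to 0.14).

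Eno1 encodes alpha-enolase, which forms phosphoenolpyruvate. LSEC-like cells had 70.2 CPM in control and 102.7 CPM in cirrhosis, 1.46-fold higher (log2 0.55, interval 0.46 to 0.64). Pericentral cells went from 74.5 to 119.0 CPM (0.68, 0.48 to 0.88), intermediate cells from 68.2 to 95.9 CPM (0.49, 0.38 to 0.61) and periportal cells from 75.2 to 105.3 CPM (0.49, 0.23 to 0.75). Control zones differed little, and the pericentral level was the highest of the zones in cirrhosis. Eno1b, a near-identical retrocopy, had 381 UMIs against 20314 for Eno1 over both tables.

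Pkm encodes muscle-type pyruvate kinase, whose M1 and M2 splice forms these 3′ counts do not separate. It stood at 239.5 CPM in control and 343.5 CPM in cirrhosis LSEC-like cells (log2 0.52, interval 0.47 to 0.57). The control levels of the 3 zones were 246.1, 236.4 and 246.8 CPM and the cirrhosis levels 340.2, 347.7 and 327.5 CPM, so zones within a library hardly differed. Portal or arterial endothelial-like cells had 208.6 and 331.4 CPM, 1.59-fold apart (0.67, 0.43 to 0.91).

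Ldha encodes the lactate dehydrogenase subunit that favours lactate from pyruvate. LSEC-like cells had 202.0 CPM in control and 292.7 CPM in cirrhosis (log2 0.54, interval 0.48 to 0.59). It was higher in cirrhosis in pericentral (234.3 and 326.6 CPM), intermediate (191.9 and 275.0 CPM) and periportal cells (211.7 and 317.5 CPM). Its partner Ldhb, the subunit that favours pyruvate and is no member here, went from 106.5 to 51.2 CPM, 2.08-fold lower (-1.06, -1.15 to -0.96).

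**Figure D2:**
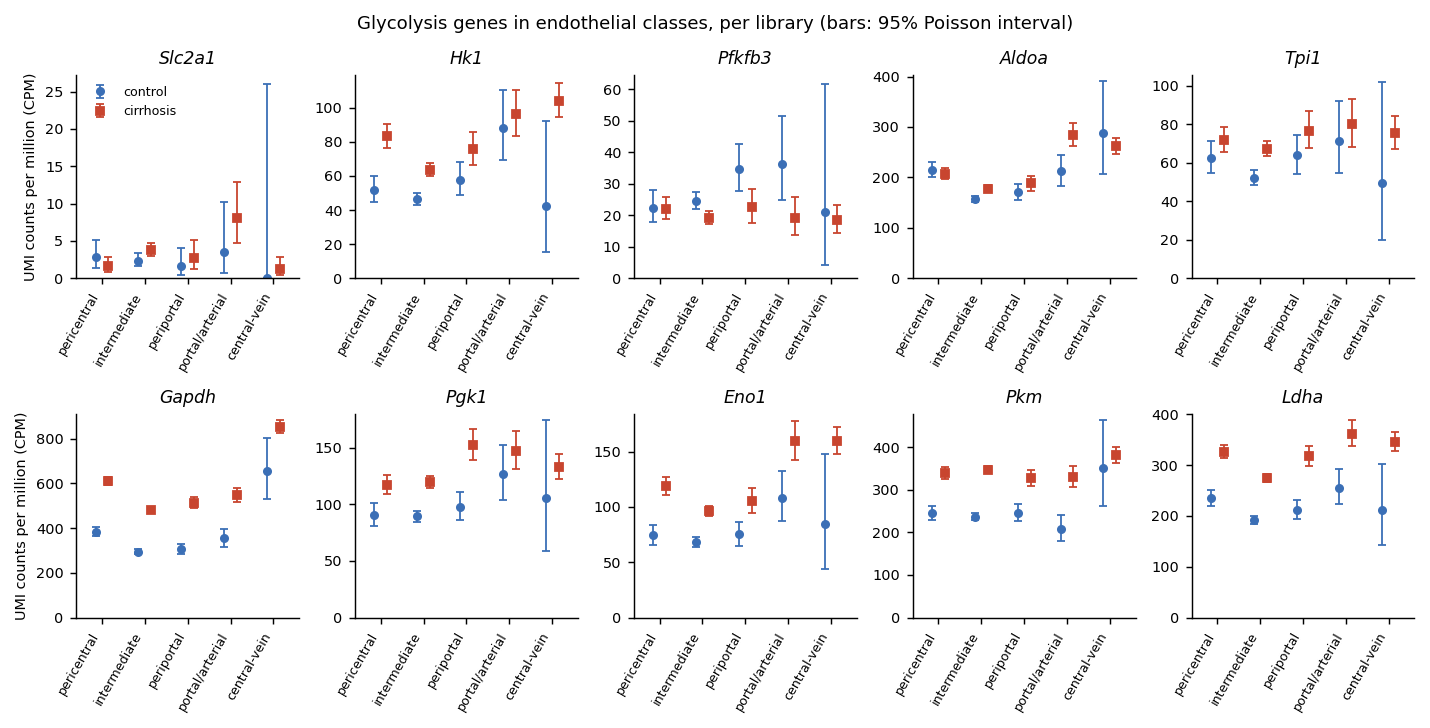
CPM of the 10 glycolysis genes (vertical axes from 0) in 5 endothelial-like classes, control (circles) and cirrhosis (squares), with 95% Poisson intervals. In cirrhosis Gapdh, Eno1, Pkm and Ldha sit above control in the 3 LSEC-like zones. The control Pfkfb3 levels of 34.6 CPM (periportal) and 36.3 CPM (portal or arterial, with a wide interval) lie above the cirrhosis levels drawn. The control central-vein class rests on 15 cells.

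By zone, the median ratio of the 9 measured genes was 0.47 in pericentral (434 control and 596 cirrhosis cells), 0.46 in intermediate (1905 and 1891) and 0.41 in periportal LSEC-like cells (380 and 351). Past 1.5-fold were Gapdh, Eno1 and Hk1 in pericentral cells (3 of 9, background 6.51%). Only Gapdh did so in intermediate cells (1 of 9, background 3.97%). In neither zone did a glycolysis gene pass it downwards, where 8.66% and 4.9% of all genes did. In periportal cells Gapdh and Pgk1 passed it upwards (2 of 9, background 5.06%) and Pfkfb3 downwards (1 of 9, background 7.16%). The periportal median was 0.19 when only barcodes with at least 1500 UMIs and under 10% mitochondrial counts were kept. Intermediate cells came from 4 clusters: the one with the most control cells was led by Egr1 and Fosb (801 of 1905 control, 230 of 1891 cirrhosis) and the one with the most cirrhosis cells by Esm1 and Ctsj (239 and 988). The median was 0.45 within the first of these and 0.42 within the second.

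Within a library the zones were near each other. Pericentral over periportal cells had a median log2 ratio of -0.01 in control and 0.05 in cirrhosis over 9 genes, and those of all genes were -0.0024 and 0.03. In control Gapdh (log2 0.32, interval 0.19 to 0.45) and Aldoa (0.33, 0.16 to 0.50) were higher in pericentral cells and Pfkfb3 was lower (-0.63, -1.08 to -0.18). Pfkfb3 was the only one of 9 past 1.5-fold, where 3.56% of all genes were lower past it and 4.82% higher. In cirrhosis Gapdh remained higher (0.25, 0.17 to 0.34), Pfkfb3 did not differ detectably (-0.03, -0.44 to 0.39), and none of 9 passed 1.5-fold, against a background of 4.3% upwards and 4.18% downwards. The control median was 0.07 with doublets kept, 0.05 at a higher clustering resolution and -0.21 in cells low in immediate-early genes, so its sign depended on the setting.

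Intermediate cells had the lowest levels of most of these genes. Pericentral over intermediate cells had a median of 0.16 in control and 0.22 in cirrhosis, and Aldoa (0.45, interval 0.33 to 0.57) and Gapdh (0.38, 0.29 to 0.46) led it in control. Hk1 (0.39, 0.24 to 0.53) and Gapdh (0.35, 0.30 to 0.40) led it in cirrhosis. Periportal over intermediate cells had medians of 0.14 and 0.19, led by Pfkfb3 in control (0.50, 0.14 to 0.84) and by Pgk1 in cirrhosis (0.35, 0.21 to 0.49). None of the 9 genes passed 1.5-fold in these comparisons. Of all genes, 2.36% were higher and 1.49% lower past it for pericentral over intermediate cells in control, and 3.5% and 3.03% in cirrhosis. For periportal over intermediate cells the shares were 1.57% and 2.15% in control and 2.4% and 2.54% in cirrhosis.

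Large vessels had more of most glycolysis transcripts than LSEC-like cells. Portal or arterial endothelial-like cells (88 control and 186 cirrhosis) were above LSEC-like cells of the same library by a median of log2 0.36 in control (8 of 9 genes higher) and 0.28 in cirrhosis (7 of 8). The medians of all genes in this comparison were -0.02 and 0.01. Hk1 (0.85, interval 0.49 to 1.19) and Eno1 (0.62, 0.30 to 0.92) passed 1.5-fold in control, 2 of 9 with a background of 7.36%. Eno1 (0.64, 0.47 to 0.80) and Aldoa (0.61, 0.49 to 0.74) did so in cirrhosis, 2 of 8 with a background of 7.51%. None was lower past 1.5-fold, where 9.49% and 8.48% of all genes were. Pkm had no such excess, at -0.20 (-0.42 to 0.02) and -0.05 (-0.16 to 0.06). Set against periportal LSEC-like cells, the neighbouring zone, the medians were 0.27 and 0.10 (all genes -0.03 and 0.02). Hk1 passed 1.5-fold in control (0.60, 0.18 to 1.01; 1 of 9, background 6.89% upwards and 7.59% downwards). In cirrhosis Eno1 (0.60, 0.38 to 0.82) and Aldoa (0.60, 0.43 to 0.76) did (2 of 9, background 6.2% and 5.75%).

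Across the groups, portal or arterial endothelial-like cells had a median ratio of 0.43, with 8 of 9 genes higher in cirrhosis. Over all genes of that class the median was -0.02, and 48.3% were higher. Pkm and Gapdh passed 1.5-fold upwards (2 of 9, background 7.21%) and Pfkfb3 downwards (1 of 9, background 8.76%). Central-vein-type endothelial-like cells numbered 15 in control and 288 in cirrhosis, so they were compared within the cirrhosis library only. There they held 852.6 CPM of Gapdh against 611.5 CPM in pericentral LSEC-like cells (log2 0.48, interval 0.41 to 0.54). In this comparison 8 of 9 genes were higher, with a median of 0.18 against 0.004 for all genes. None of the 9 passed 1.5-fold (background 4.04% upwards and 4.62% downwards). Gapdh was also above portal or arterial endothelial-like cells, by 0.64 (0.54 to 0.74), past 1.5-fold where 8.29% of all genes were, and none of the 8 genes compared was lower past it (background 9.62%).

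Other cell classes in the sort give the same genes in another setting. T or NK cell-like cells (228 and 180) had more of all 8 measured glycolysis genes than LSEC-like cells in control, with a median of log2 0.59 against -0.27 for all genes. Eno1 stood at 284.3 against 70.2 CPM and Gapdh at 775.1 against 312.4 CPM, and 4 of 8 genes passed 1.5-fold upwards (background 20.3%) and none downwards (background 38.5%). In cirrhosis the median was 0.40 (all genes -0.24), with 3 of 8 past 1.5-fold upwards (background 21.4%) and none downwards (background 39.2%). Pfkfb3, under the minimum in this comparison, was lower, by log2 -0.93 (interval -1.61 to -0.31) in control and -0.87 (-1.79 to -0.08) in cirrhosis. Slc2a1, also under it, was higher, by 2.31 (1.45 to 3.10) and 2.14 (1.27 to 2.92). Cholangiocyte-like cells (90 and 127), the lining of bile ducts, had the highest Eno1 of the classes drawn in control at 355.4 CPM. They also had 26.8 CPM of Slc2a1 in control and 31.2 CPM in cirrhosis, and were the class in which Slc2a1 passed the minimum. They had less Pkm (111.1 against 239.5 CPM) and less Hk1 (22.0 against 48.8 CPM) than LSEC-like cells. Of 9 genes, 4 were past 1.5-fold higher (background 19.1%) and 2 lower (background 25.8%), and in cirrhosis 4 of 8 were higher (background 18.2%) and 2 lower (background 23.1%). These counts rest in part on the hepatocyte share described below. With it taken off both classes, control Gapdh was lower than in LSEC-like cells, at 229.8 against 304.2 CPM, and Tpi1 stood at 64.4 against 53.8 CPM. Eno1, at 295.7 against 68.5 CPM, and Aldoa, at 283.8 against 168.4 CPM, stayed higher.

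Kupffer cell-like cells had more Eno1, Gapdh, Tpi1 and Aldoa than LSEC-like cells in each library, and all 4 passed 1.5-fold (4 of 9 in control, background 14.1%, and 4 of 8 in cirrhosis, background 17.6%). None was lower past it in control (background 38.6%), and in cirrhosis Hk1 was, at 20.1 against 69.8 CPM (1 of 8, background 40.5%). Plasmacytoid dendritic cell-like cells had the medians nearest to 0 of the other classes set against LSEC-like cells, -0.08 and 0.01 (all genes -0.19 and -0.16). Of the 8 genes above the minimum, Hk1 alone was past 1.5-fold lower in them, at 23.6 against 48.8 CPM and 46.2 against 69.8 CPM. That was 1 of 8 each (background 31.2% and 28.8%), and none of the 8 was past it higher (background 17.1% and 16.9%). Under the minimum, Pfkfb3 was lower too, by log2 -1.31 (interval -2.38 to -0.42) in control and -1.69 (-2.82 to -0.75) in cirrhosis. Slc2a1, also under it, was higher by 2.27 (1.17 to 3.24) in control and by 0.85 (-0.41 to 1.89) in cirrhosis. A small unnamed cluster led by Ccr7, with 5 control and 30 cirrhosis cells, had Pfkfb3 at 316.4 and 218.2 CPM, with an interval of 160.9 to 289.4 CPM in cirrhosis, and it was singled out after its values were seen.

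**Figure D3:**
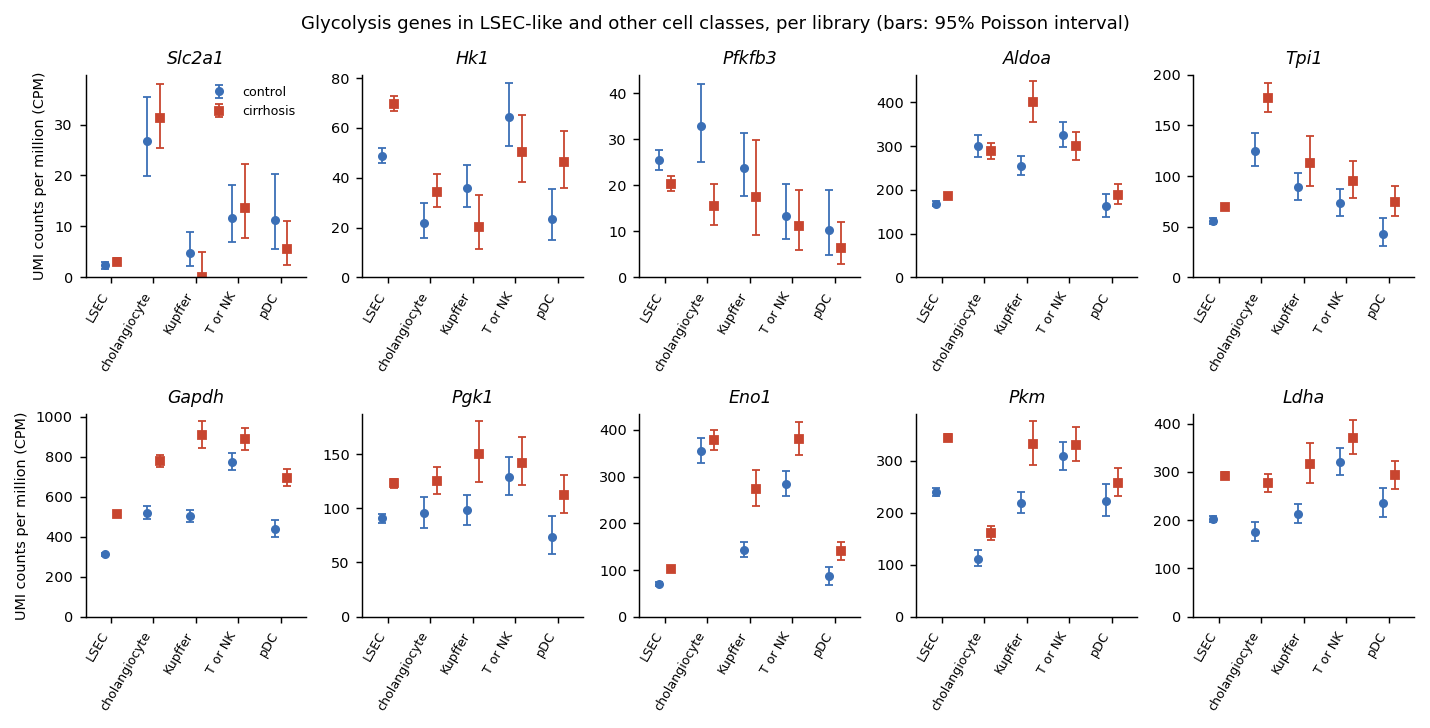
CPM of the 10 glycolysis genes (vertical axes from 0) in LSEC-like, cholangiocyte-like, Kupffer cell-like, T or NK cell-like and plasmacytoid dendritic cell-like (pDC) cells, control (circles) and cirrhosis (squares), with 95% Poisson intervals. Slc2a1 stands at 26.8 and 31.2 CPM in cholangiocyte-like cells and at 2.34 and 3.11 CPM in LSEC-like cells, and Eno1 is lowest in LSEC-like cells.

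In order of the control levels, Eno1 ran from 70.2 CPM in LSEC-like through 86.3 CPM in plasmacytoid dendritic, 143.1 CPM in Kupffer and 284.3 CPM in T or NK to 355.4 CPM in cholangiocyte-like cells. The first neighbours in that order had overlapping Poisson intervals and the others did not. With the hepatocyte share described below taken off, Eno1 stood at 295.7 CPM in cholangiocyte-like and 282.8 CPM in T or NK cell-like cells. The gap between these classes therefore rests on how that share is set. Pfkfb3 ran from 10.3 CPM in plasmacytoid dendritic and 13.4 CPM in T or NK through 23.8 CPM in Kupffer and 25.5 CPM in LSEC-like to 32.8 CPM in cholangiocyte-like cells, and all neighbours overlapped. Classes further apart in the order did not all overlap. Set directly against LSEC-like cells, the log2 ratio was -0.93 (interval -1.61 to -0.31) in T or NK and -1.31 (-2.38 to -0.42) in plasmacytoid dendritic cell-like cells.

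Cirrhosis was higher than control for most glycolysis genes outside the endothelium as well. Cholangiocyte-like cells had a median ratio of 0.45 over 10 genes, of which Ldha, Hk1 and Gapdh passed 1.5-fold upwards (3 of 10, background 5.49%) and Pfkfb3, at 32.8 and 15.4 CPM, downwards (1 of 10, background 5.2%). This median was 0.12 with each cell thinned to 2000 UMIs. Kupffer cell-like cells (233 and 75), the resident macrophages, had a median of 0.60 over 9 genes, and Eno1 went from 143.1 to 273.9 CPM. In them 5 of 9 genes passed 1.5-fold upwards (background 11.4%) and 1, Hk1, downwards (background 18%). The Kupffer median was 0.98 with doublets kept. The Kupffer class pooled a cluster of 99 control and 36 cirrhosis cells with a shallower one of 134 and 39. Clusters with Gpnmb and Trem2 among their leading genes stayed unnamed and are not in it. Plasmacytoid dendritic cell-like cells (56 and 81) had a median of 0.63 over 8 genes, 5 of them past 1.5-fold upwards (background 6.03%) and none downwards (background 6.68%). T or NK cell-like cells had the smallest, 0.17 over 8 genes (0.08 with the stricter cell filter and 0.26 with doublets kept), none of which passed 1.5-fold upwards (background 5.22%) or downwards (background 12%). This class pooled a cluster led by Trac (175 control and 109 cirrhosis cells) and one led by Xcl1 and Gzma (53 and 71), so its mix differed between the libraries. Hepatocyte markers summed to 10840 and 13511 CPM in cholangiocyte-like, 1455 and 1903 CPM in Kupffer cell-like, 485.8 and 2052 CPM in plasmacytoid dendritic cell-like and 272.2 and 510.0 CPM in T or NK cell-like cells. They were thus higher in cirrhosis in these 4 classes too. In cholangiocyte-like cells the share carried at the hepatocyte ratio was large, 289.4 of 519.2 CPM of Gapdh and 133.6 of 176.1 CPM of Ldha in control. Taking it off left Gapdh at 229.8 and 418.4 CPM and Ldha at 42.5 and 110.2 CPM, so these levels in cholangiocyte-like cells rest on how that share is set. With it taken off, the median ratio was 0.16 in T or NK, 0.51 in cholangiocyte, 0.55 in plasmacytoid dendritic and 0.60 in Kupffer cell-like barcodes.

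**Figure D4:**
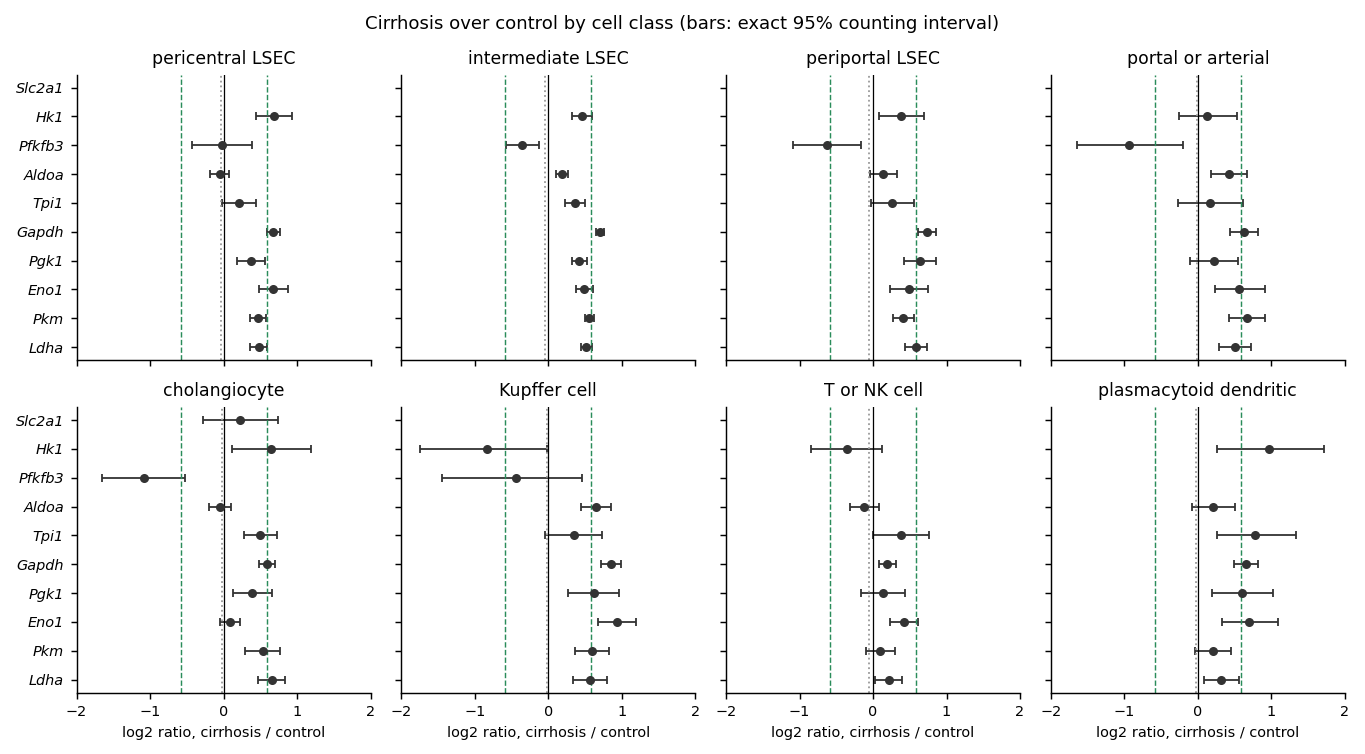
Log2 ratio of cirrhosis over control (horizontal axis) for each glycolysis gene above 20 CPM in 8 cell classes, with exact 95% counting intervals. The solid line is 0, the dotted line the median of all genes, and dashed lines mark 1.5-fold; Gapdh lies right of 0 in all 8 classes and Pfkfb3 left of it in the 6 where it was measured, of which the pericentral value turned to 0.06 by the median of ratios.

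Over the 8 classes that do not overlap, 60 of 71 measured ratios were above 0, 46 with an interval wholly above it and 5 wholly below. Of the 54513 ratios of all genes in these classes, 45.9% were above 0, 15.6% had an interval wholly above it and 19.4% wholly below, although deeply counted genes such as these have narrower intervals. Gapdh, Eno1, Pkm, Ldha, Pgk1 and Tpi1 were higher in cirrhosis in 8 of 8 classes, and the interval of Gapdh and of Ldha lay above 0 in all 8. Pfkfb3 was lower in 6 of 6 classes, 4 of them with an interval wholly below 0, but its pericentral value of -0.02 turned to 0.06 by the median of ratios. Hk1 was higher in 6 of 8 classes, and lower in T or NK cell-like and Kupffer cell-like cells. All classes share the 2 libraries, so they do not count as repeats of the comparison.

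Several other measures differed between the libraries beside the glycolysis genes, and their part in the result was not tested except where values follow. Median UMIs per LSEC-like cell were 6832 in control and 9662.5 in cirrhosis. With each cell thinned to 2000 UMIs the glycolysis genes held a mean of 2.34 UMIs per cell in control and 3.30 in cirrhosis, and their median ratio was 0.52. Hepatocyte markers summed to 306.6 CPM and 574.9 CPM in LSEC-like cells, and none was at 0. Of these, 10 of 11 were higher in cirrhosis, where 43.9% of all measured genes were. Hepatocyte-like barcodes, 6 in control and 1260 in cirrhosis, held 5316 CPM of the 10 genes in cirrhosis and 2464 CPM of Gapdh alone. At their ratio of gene to marker, hepatocyte RNA would bring 8.19 CPM of Gapdh to control and 15.4 CPM to cirrhosis LSEC-like cells. With that share taken off every gene the median stayed at 0.52. Endothelial barcodes with over 0.5% of UMIs from markers of other cell types, hepatocytes among them, had been set aside before LSEC-like cells were named. Together with a cluster led by Fabp1 and Apoc3 they numbered 139 in control and 511 in cirrhosis. The hepatocyte share left in LSEC-like cells was therefore limited beforehand.

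The 12 immediate-early genes, which cell dissociation is known to induce, summed to 14063 CPM in control and 2916 CPM in cirrhosis LSEC-like cells. Of these, 12 of 12 were lower in cirrhosis, 11 of them past 1.5-fold where 5.18% of all genes were. Among cells below the median share of these genes (774 control, 2004 cirrhosis), Gapdh stood at 273.5 and 514.1 CPM (log2 0.91, interval 0.82 to 1.0) and Pfkfb3 at 26.0 and 20.6 CPM (-0.34, -0.66 to -0.003). Among the others (1945 and 834) Gapdh had a ratio of 0.69 (0.64 to 0.75) and Pfkfb3 of -0.36 (-0.62 to -0.10). The directions of these genes were thus alike in both sets of cells. Ribosomal protein genes took 7.63% of LSEC-like UMIs in control and 10.49% in cirrhosis, and mitochondrial genes 7.20% and 8.40%. Within the 6 LSEC-like clusters the median ratio ran from 0.12 to 0.47. The lowest was in a cluster led by Gm42418 and Lars2 with median UMIs of 3371 and 3637.5 per cell, where 5 of 9 genes were higher.

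Other genes of glycolysis and its neighbouring pathways had medians nearer to 0 or below it in LSEC-like cells. Of 22 other glycolytic enzymes and isoforms 6 were measured, 4 of them higher where 43.9% of all genes were, with a median ratio of 0.11. Gpi1, which isomerises glucose 6-phosphate, went from 153.0 to 175.1 CPM and Pgam1, phosphoglycerate mutase, from 87.6 to 102.2 CPM, both higher (0.19, 0.13 to 0.26, and 0.22, 0.14 to 0.31). Adpgk, an ADP-dependent glucokinase, was lower, at 45.2 and 34.7 CPM. Hk2, the inducible hexokinase, lay under the minimum at 7.72 and 1.86 CPM (155 and 52 UMIs; -2.05, -2.53 to -1.59), and it was singled out after its values were seen. Of the transporters only Slc2a8 (35.5 and 24.0 CPM) and Bsg, a chaperone of lactate transporters (322.2 and 313.6 CPM), were measured.

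Of 9 genes that steer pyruvate and glucose use only 3 were measured, 2 of them lower and 1 level. The 2 had intervals wholly below 0, as 39.5% of all genes did. Pdk4, a kinase that shuts off pyruvate dehydrogenase, went from 57.4 to 24.0 CPM, 2.39-fold lower (log2 -1.26, interval -1.40 to -1.12). Txnip, which restrains glucose uptake, went from 1239 to 903.7 CPM, and Pdk1 stood at 32.7 and 33.2 CPM. All 21 genes of pyruvate entry and the citrate cycle were measured, 12 of them higher where 43.9% of all genes were, with a median of 0.03. None passed 1.5-fold, where 4.41% of all genes did upwards and 5.18% downwards, and Sdha at -0.30 and Pdha1 at 0.20 were among them. The pentose phosphate pathway had a median of -0.02 over 6 genes, led by Rpia at -0.40, and of the gluconeogenic and liver isoforms only Pck2 was measured, at -0.26.

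Of the hypoxia-inducible factors and their targets outside glycolysis, 14 were measured in LSEC-like cells, and 5 of them were higher in cirrhosis where 43.9% of all genes were. The median was -0.17, 3 of 14 intervals lay wholly above 0 and 9 wholly below, against 29.3% and 39.5% of all genes. Past 1.5-fold lower were 3 of 14 (background 5.18%). Adm, the vasodilator adrenomedullin, stood at 74.3 and 32.5 CPM (-1.19), the prolyl hydroxylase subunit P4ha2 at 28.7 and 13.6 CPM (-1.08), Ndrg1 at 350.9 and 231.0 CPM (-0.60) and Ddit4 at 36.2 and 24.7 CPM (-0.55). No interval of these 4 reached 0. Hif1a itself was at 96.8 and 106.6 CPM and Epas1 at 662.0 and 600.5 CPM.

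Reference genes in common use also differed between the libraries in LSEC-like cells. Their 12 measured members had a median of 0.11 and ran from -0.58 to 0.83. Actg1 (746.8 and 1330 CPM), Rplp0 (716.7 and 1209 CPM) and Eef1a1 (2682 and 4409 CPM) passed 1.5-fold upwards, 3 of 12 where 4.41% of all genes did, and Gapdh at 0.72 was of the size of Eef1a1. Tbp, under the minimum mean, went from 21.7 to 13.8 CPM.

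Across 27 profiles of classes within a library, each of at least 50 cells, the glycolysis genes followed one another to unequal degrees. On log2(CPM + 10), Gapdh correlated with the mean of the other 9 at r = 0.74, Eno1 at 0.73, Pgk1 at 0.62 and Ldha at 0.51, whereas Hk1 was at -0.25 and Pfkfb3 at -0.29. The closest pair was Ldha and Pgk1 at 0.85. Among 7270 other genes the nearest to the mean profile were Slc25a3, the mitochondrial phosphate carrier, at 0.83, Aprt, an adenine salvage enzyme, at 0.83, Med8 at 0.79, Pgam1 at 0.79 and Cenpx at 0.78. Cript, Tcp1, Mrps15, Bag1 and Edf1 followed at 0.74 to 0.78. These profiles share 2 libraries and differ in depth, so the values describe them and carry no test.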

How the data were processed

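The authors deposited 1 table of UMI counts for each library, with genes by symbol and unscaled whole numbers. Cell Ranger and the mm10 build are named in the submitters' processing notes. Software version, annotation and barcode calling: not given in the sources used here. The lowest barcode total was 500 UMIs. Barcodes needed 500 UMIs, 300 genes and under 20% mitochondrial counts, with under 5% from erythroid genes. The highest doublet scores, 0.8% per 1000 barcodes, were removed (214 control and 470 cirrhosis barcodes).

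Cells were clustered in 3 steps with scanpy 1.11.5 (2000 variable genes, 30 components, 20 neighbours, Leiden resolutions 0.5, 0.8 and 1). The glycolysis genes and the other lists described, apart from the immediate-early and reference genes, entered no step. Immediate-early and reference genes were not kept out of every step, so the classes may depend on them in part. Before the second step, endothelial barcodes with over 0.5% of UMIs from markers of other cell types were set aside. Clusters were named from marker lists, with thresholds set after the data had been seen. The glycolysis genes, lists and markers were chosen with earlier results of these data known.

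Counts were summed per class and library and given as CPM. Log2 ratios have exact conditional 95% intervals. A gene needed a mean of 20 CPM and a count in both libraries, and a class 50 cells per library. No test was made, since each group is 1 library, and past 1.5-fold is a size, not a call of significance. The interval was tried on Poisson counts simulated for LSEC-like cells (6880 genes), the counting model it is built on. It contained the simulated ratio in 97% of 100 genes set 1.5-fold apart and in 98% of 100 genes set 2-fold apart. Such coverage follows from the model, so the trial checks the calculation only. It held no variation between cells, mice or libraries. Named genes were the 10 glycolysis genes, up to 4 genes of each other list with the widest ratio at 20 CPM or more in either library, and the 10 genes with the nearest profile; Hif1a, Epas1 and Hk2 were added after their values were seen. Copies were searched with BLAST+ 2.17.0 in GENCODE M21 transcripts over the last 500 bases of each gene, at 95% identity over 100 bases. Alternatives covered scaling, minimum level, cell filter, doublets, depth, resolution and immediate-early genes. With median-of-ratios scaling, ratios shifted by under 0.1 in every class compared.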

Additional observations from a re-analysis of the deposited data

Results flagged for a closer look

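Hk1 differed in direction between cell classes. In Kupffer cell-like cells it went from 35.9 CPM (74 UMIs) in control to 20.1 CPM (15 UMIs) in cirrhosis, a log2 ratio of -0.83 (interval -1.74 to -0.02). In LSEC-like cells it went from 48.8 to 69.8 CPM, a ratio of 0.52 (interval 0.41 to 0.63). The intervals lie on opposite sides of 0, each class is 1 library per group, and the difference between the classes was not tested.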

How the results depend on the processing

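In LSEC-like cells the sign of each of the 10 genes held in 90 of 90 values recomputed under 9 alternatives. The count leaves out the minimum level, which cannot move a single gene, and the 2 scalings, which shift all genes alike. The median over the genes there was 0.52. It was 0.60 with median-of-ratios scaling, 0.59 without ribosomal, mitochondrial and haemoglobin genes in the total, 0.42 with doublets kept, 0.55 with the stricter cell filter and 0.55 at the lower first resolution. The 2 scalings gave 0.55 and 0.55 in pericentral cells, and 0.54 and 0.53 in intermediate cells, where the stricter filter gave 0.55. The stricter filter gave 0.19 in periportal cells. The Kupffer cell-like median was 0.98 with doublets kept and the cholangiocyte-like median 0.12 with thinned cells. Pericentral over periportal in control was -0.14 with thinned cells and -0.21 in cells low in immediate-early genes. It was 0.07 with doublets kept and 0.05 at the higher second resolution. The cause of these shifts was not tested. Taking off a hepatocyte share and leaving out the low-depth cluster led by Gm42418 were chosen after seeing the data, and gave LSEC-like medians of 0.52 and 0.53.

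Some alternatives gave no value because a class then had no cluster of that name or too few cells: pericentral and plasmacytoid dendritic cell-like cells under the stricter filter, periportal cells at the lower resolution, the zone ratios under both, and portal or arterial cells low in immediate-early genes. No paired analysis was possible because each group is 1 library. Depth limits Slc2a1 in LSEC-like cells and every gene in classes under 100 cells. Libraries of 1 pool each cannot separate mice, sorting or preparation from cirrhosis.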
